A study of Mus musculus with 4 samples.

Results

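The 10 genes described here are the peroxiredoxins Prdx1 to Prdx6 and the glutathione peroxidases Gpx1 to Gpx4, taken by gene symbol from a table of 24016 genes measured in mouse colon. The set was chosen by gene name, with earlier results on these libraries in view, the Prdx6 counts of the PBS and untreated libraries among them, so its values are given as a description. RNA sequencing covered 4 libraries, 1 per condition, from germ-free C57BL/6 mice aged 7 weeks, which carry no microbiota of their own. The conditions were an oral gavage of Lactobacillus rhamnosus GG (LGG, a probiotic strain), a gavage of Escherichia coli, a gavage of phosphate-buffered saline (PBS, the vehicle), and no treatment. Each gavage was given to 4 mice according to the labels, a colon piece of 4 cm was taken 4 h later, and whether RNA of several mice was pooled is not stated. The series title refers to Nrf2, a transcription factor that controls many antioxidant genes.

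Peroxiredoxins remove hydrogen peroxide and organic peroxides with a reactive cysteine. Most of them are then reduced by thioredoxin, whereas Prdx6 draws on glutathione and also has phospholipase activity. Glutathione peroxidases reduce peroxides with glutathione as the electron donor, and their classical members carry selenocysteine, an amino acid encoded by a UGA codon that otherwise ends translation. In the gut, Gpx2 is the form typical of the epithelium, and Gpx4 is known for reducing lipid peroxides in membranes and for restraining ferroptosis.

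The selenocysteine codon is shown because it marks the 4 glutathione peroxidases of the set and not their relatives Gpx5 to Gpx8. Each stretch has 30 bases of coding sequence from GENCODE vM21 (GRCm38) for the transcript paired with the deposited RefSeq accession, and capitals mark the TGA codon read as selenocysteine.
Gpx1: aatgtcgcgtctctcTGAggcaccacgatc
Gpx2: aatgtggcgtcactcTGAggaacaactacc
Gpx3: aacgtagccagctacTGAggtctgacagac
Gpx4: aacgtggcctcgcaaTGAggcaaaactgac
The codon is number 47 in Gpx1 (chr9:108339451-108339453, plus strand), 40 in Gpx2 (chr12:76795256-76795258, minus strand), 73 in Gpx3 (chr11:54907256-54907258, plus strand) and 73 in Gpx4 (chr10:80054737-80054739, plus strand). Gpx1 and Gpx2 share 24 of these 30 bases, Gpx2 and Gpx4 share 21, and Gpx3 shares 15 with Gpx1 and 15 with Gpx2. The annotation marks no selenocysteine in those relatives.

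Promoters were searched for TGACNNNGC, the core of the antioxidant response element bound by Nrf2, on both strands. RefSeq promoter windows (GRCm38.p6, 250 bases before to 50 after the start site) matched 9 of the 10 genes, the exception being Prdx6. The core was found in 1 of the 12 windows of these genes (8.33%), beside 12.4% of all 32851 windows. The match lay in the window of Prdx1, chr4:116685349-116685648 on the plus strand. The stretch around it, with the match in capitals, begins its match 133 bases upstream of the start site and carries the core on the opposite strand.
Prdx1: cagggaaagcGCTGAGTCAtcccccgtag
A match is a description of letters and not a binding site, and the window tells nothing about Nrf2 at the other genes.

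Counts assigned to genes totalled 29899371 in the LGG, 29368008 in the E. coli, 16289580.0 in the PBS library and 27220697 in the untreated one. The 10 genes held 0.330% of these counts in the LGG, 0.398% in the E. coli, 0.385% in the PBS library and 0.235% in the untreated one. Values below are counts per 1000000 (CPM) after TMM scaling, a correction for differences in library composition. Ratios are on the log2 scale with a 95% counting interval, the exact binomial interval for the pair of counts. With 1 library per condition there is no replicate spread and no test, and the intervals cover counting error only. A gene was called past the size rule when it differed at least 2-fold, its interval excluded 0 and its mean CPM was at least 1, which 14450 genes reached and all 10 members did. All 9 matched genes of the colonic epithelium list were detected in every library, the lowest at 148 CPM.

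Per kilobase of transcript, Prdx6 was the most abundant member and Prdx4 the least. Mean levels over the libraries were 761 CPM per kilobase for Prdx6, 294 for Prdx1, 274 for Gpx2, 241 for Prdx5 and 217 for Prdx2. Below these stood Gpx1 at 179, Gpx4 at 135, Prdx3 at 75.2, Gpx3 at 65.7 and Prdx4 at 21.9 CPM per kilobase. The ranges of neighbours in this order overlapped over the libraries for Prdx1 with Gpx2, Gpx2 with Prdx5, and Prdx5 with Prdx2. In the other cases the gene's lowest library lay above the highest library of the next gene in the order. Prdx6 was the 31st most abundant of all rows by mean CPM, and Prdx4 was 7960th.

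**Figure D1:**
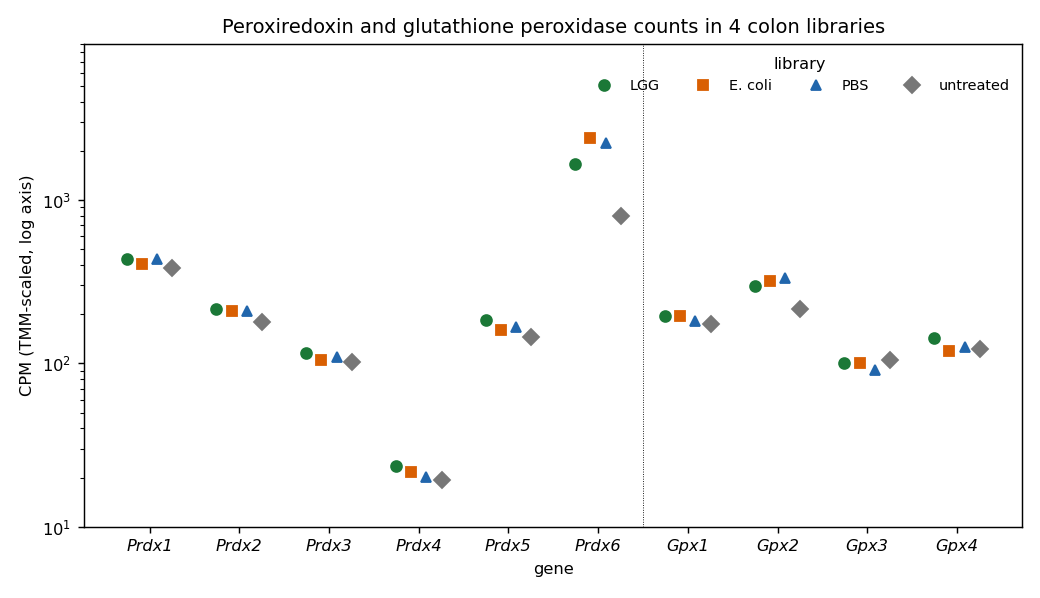
CPM of the 10 genes (log axis) in the LGG, E. coli, PBS and untreated libraries, 1 point per library. Prdx6 lies between 792 and 2387 CPM with the untreated library lowest, and Gpx2 shows the same lowest library, whereas the points of the other 8 genes lie close together.

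Prdx6 (NM_007453, chromosome 1, 163170243 to 163181297 in mm9) reached 1660 CPM in the LGG, 2387 in the E. coli, 2242 in the PBS library and 792 CPM in the untreated one. All 3 gavaged libraries were above the untreated one, and among them LGG was the lowest. Against untreated, the log2 ratios were 1.07 (1.04 to 1.09) for LGG, 1.59 (1.57 to 1.61) for E. coli and 1.5 (1.48 to 1.52) for PBS, which is 2.09-fold, 3.01-fold and 2.83-fold. It ranked 59th from the highest of 14450 genes in the LGG ratio, 30th in the E. coli ratio and 29th in the PBS ratio. These comparisons share the untreated library, and the LGG ratio was 0.97, below 2-fold, when libraries were scaled by their totals alone.

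Between the gavaged libraries Prdx6 differed less. LGG against PBS gave -0.43 (-0.45 to -0.41) and LGG against E. coli gave -0.52 (-0.54 to -0.51), while E. coli against PBS gave 0.09 (0.07 to 0.11). In LGG against PBS 5.76% of the genes had a ratio at least as large in size, in LGG against E. coli 3.47% did, and in E. coli against PBS 48.4% did. Prdx6 was thus near the middle of all genes in the last pair and not in the others.

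Ratios of member counts inside a library do not depend on scaling between libraries. Prdx6 had 3.82 (3.75 to 3.90) counts for each count of Prdx1, the cytosolic peroxiredoxin, in the LGG library. That ratio was 5.87 (5.76 to 5.99) in the E. coli, 5.19 (5.06 to 5.32) in the PBS library and 2.06 (2.01 to 2.10) in the untreated one. Of all counts on the 6 peroxiredoxins, Prdx6 took 63.0% in the LGG (62.7 to 63.4), 72.6% in the E. coli (72.3 to 72.9), 70.5% in the PBS library (70.1 to 70.9) and 48.8% in the untreated one (48.4 to 49.3; exact Clopper-Pearson intervals). Per kilobase the shares of Prdx6 were 43.8% in LGG, 54.9% in E. coli, 52.5% in PBS and 30.7% in untreated. The summed peroxiredoxin level was 2633 CPM in the LGG, 3289 in the E. coli, 3180 in the PBS library and 1622 in the untreated one.

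**Figure D2:**
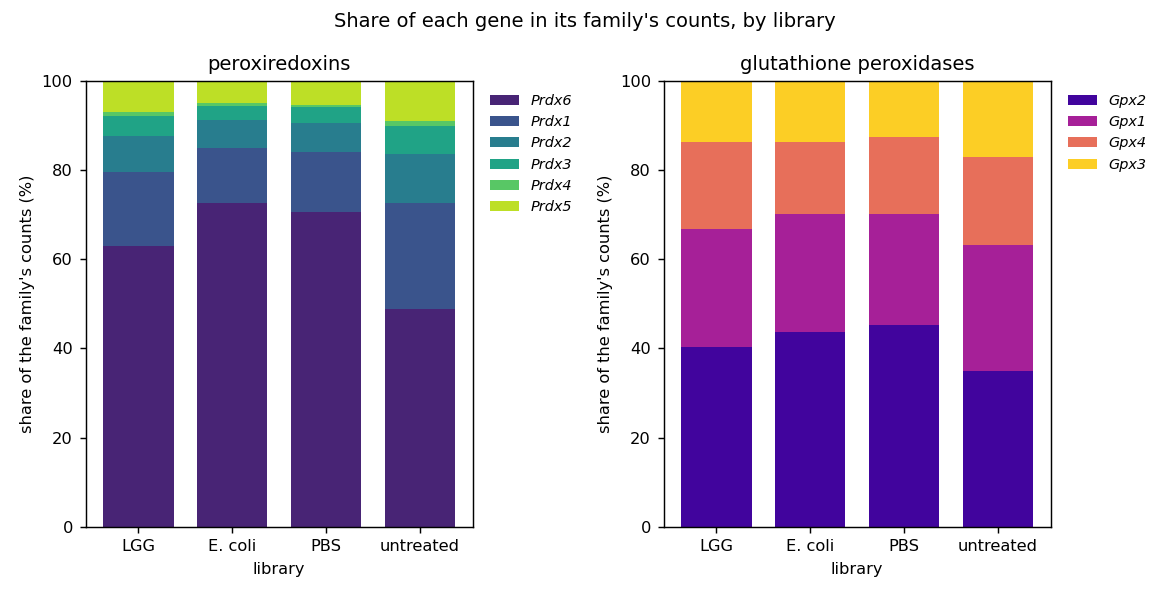
Stacked bars give each gene's share (%) of its family's counts in the LGG, E. coli, PBS and untreated libraries, peroxiredoxins on the left and glutathione peroxidases on the right. Prdx6 takes between 63.0% (LGG) and 72.6% (E. coli) of the peroxiredoxin counts after gavage and 48.8% in untreated colon, and Gpx2 takes 40.3% (LGG) to 45.4% (PBS) of the glutathione peroxidase counts after gavage and 35.04% in untreated colon.

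The genomic surroundings of Prdx6 were measured in the same table. No other row overlapped it, and 7 genes with a mean CPM of at least 1 lay within 300 kb in mm9 coordinates, the nearest of them 108633 bases away. Their log2 ratios ran from -0.34 to 0.18 in LGG, from -0.27 to 0.31 in E. coli and from -0.50 to 0.36 in PBS, each against untreated. None of these neighbours was past the size rule in those comparisons. Over all tested genes 1.04% were for LGG, 2.35% for E. coli and 1.45% for PBS, and none among 7 genes is close to these shares. The row of its relative Prdx6b had 0 counts in the LGG, E. coli and untreated libraries and 2 in the PBS library, and the annotation also names a processed pseudogene, Prdx6-ps2, which has no row in the table.

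Prdx6 was the only member whose highest CPM was at least 2 times its lowest, so the genes nearest to it in pattern were sought. Likeness was the root mean square difference of log2 CPM, centred for each gene over the 4 libraries, among genes with a mean CPM of at least 1. The nearest gene was Upp1, which encodes uridine phosphorylase, at a difference of 0.06. It was measured at 58.0 CPM in the LGG, 75.9 in the E. coli, 71.5 in the PBS library and 26.6 in the untreated one. Next came the non-coding row 9030619P08Rik at 0.06, Ciart, a repressor in the circadian clock, at 0.07, the matrix glycoprotein gene Thbs4 at 0.10, and Cyp2d13 at 0.10. Of these, Thbs4 was the most abundant, with 316 CPM in LGG, 421 in E. coli, 398 in PBS and 165 in untreated.

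Markers of position along the colon differed between the same libraries. The 6 matched genes of the distal list summed to 279 CPM in the LGG, 412 in the E. coli, 349 in the PBS library and 199 in the untreated one, the order in which Prdx6 stood. The 6 genes of the proximal list summed to 569 CPM in LGG, 417 in E. coli, 422 in PBS and 745 in untreated, the reverse order. None of the distal or proximal genes was at 0 in any library. In PBS against untreated all 6 distal genes had positive ratios and none of the 6 proximal genes did, and in LGG against E. coli all 6 distal genes had negative ones. In LGG against untreated only 4 of the 6 distal genes were positive, and in LGG against PBS 5 of 6 were negative. Single genes thus did not all follow the order of the sums. Distal Hoxd13 was at 15.4 CPM in LGG and 21.2 in untreated, and proximal Sult1a1 was at 248 in E. coli and 213 in PBS. Hoxb13, the most abundant distal gene, carried most of that list's sum. It was at 203 CPM in the LGG, 286 in the E. coli, 248 in the PBS library and 134 in the untreated one. Summed colonic epithelium markers were at 12648 CPM in LGG, 11745.0 in E. coli, 11802 in PBS and 9830 in untreated. Summed smooth muscle markers were at 11136 CPM in LGG, 10166 in E. coli, 11150 in PBS and 12044 in untreated, with none of the genes of either list at 0. The part of position and cell makeup in the Prdx6 difference was not tested, and in bulk tissue more cells of a type and more RNA per cell cannot be told apart.

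**Figure D3:**
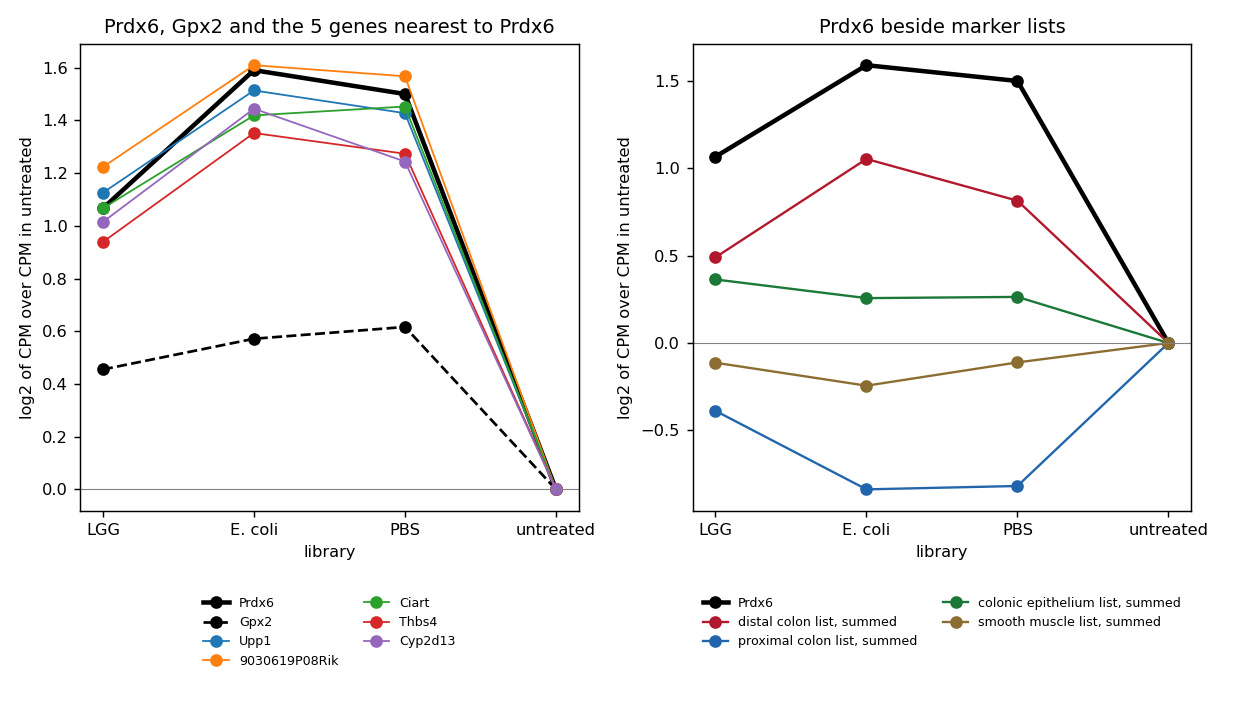
Log2 of CPM over the CPM of the untreated library, for Prdx6, Gpx2 and the 5 genes nearest to Prdx6 in pattern (left) and for Prdx6 beside the summed CPM of 4 marker lists (right). Lines only join the points of a gene or list; Prdx6 and the distal list are highest in the E. coli library and lowest in the untreated one, and the proximal list is lowest in the E. coli library.

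Gpx2 (NM_030677, chromosome 12, 77893322 to 77896541 in mm9), the gastrointestinal glutathione peroxidase, was the other member set apart by the untreated library. It was measured at 296 CPM in the LGG, 321 in the E. coli, 331 in the PBS library and 216 in the untreated one. Log2 ratios against untreated were 0.46 (0.41 to 0.50) for LGG, 0.57 (0.53 to 0.62) for E. coli and 0.62 (0.56 to 0.67) for PBS. Ratios at least as large in size were found for 10.9% of genes for LGG, 9.15% for E. coli and 5.95% for PBS. In PBS against untreated 7 of the 9 colonic epithelium genes were positive, with a median of 0.22. Their part in the Gpx2 values was not tested. As for Prdx6, the gavaged libraries were all above the untreated one, with LGG the lowest of them. LGG against PBS was -0.16 (-0.21 to -0.11), a size that 34.5% of genes reached, and LGG against E. coli was -0.12 (-0.16 to -0.07). E. coli against PBS was -0.04 (-0.09 to 0.0041).

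For each count of Gpx1 there were 1.52 (1.47 to 1.57) counts of Gpx2 in the LGG, 1.65 (1.60 to 1.71) in the E. coli, 1.83 (1.75 to 1.92) in the PBS library and 1.25 (1.20 to 1.29) in the untreated one. The untreated library was lowest here too, with no scaling between libraries. A pseudogene row, Gpx2-ps1, had at most 6 counts in a library, beside at least 5317 for Gpx2.

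The other peroxiredoxins were also lowest in the untreated library with TMM scaling, with the highest CPM of each gene at most 1.28 times its lowest. That order was not stable: with library totals Prdx1 (-0.0077) and Prdx3 (-0.03) were lower in E. coli than in untreated, and Prdx4 (-0.04) was lower in PBS. Intervals against untreated also included 0 with TMM scaling for Prdx3 in E. coli (-0.02 to 0.13) and for Prdx4 in E. coli (-0.01 to 0.33) and PBS (-0.15 to 0.25). Prdx1 and Prdx2 are cytosolic enzymes, and Prdx2 is abundant in red blood cells. Prdx1 (NM_011034, chromosome 4, 116358204 to 116372605 in mm9) stood at 435 CPM in the LGG, 406 in the E. coli, 432 in the PBS library and 385 in the untreated one. Prdx2 (NM_011563, chromosome 8, 87493547 to 87498212 in mm9) stood at 215 CPM in LGG, 209 in E. coli, 209 in PBS and 179 in untreated. Against untreated Prdx1 gave 0.17 (0.14 to 0.21) in LGG, 0.08 (0.04 to 0.11) in E. coli and 0.16 (0.12 to 0.21) in PBS. Prdx2 gave 0.26 (0.21 to 0.32) in LGG, 0.22 (0.17 to 0.27) in E. coli and 0.22 (0.16 to 0.28) in PBS. Summed erythroid markers, at 32.2 CPM in the LGG, 25.6 in the E. coli, 22.7 in the PBS library and 45.8 in the untreated one, were highest in the untreated library, and their part in the Prdx2 values was not tested. Of the 9 matched erythroid genes 1 was at 0, in the PBS library. Pairs of globin rows had near-equal values, such as 8.20 CPM for Hba-a1 and 8.09 for Hba-a2 in untreated. Whether such rows share reads is not stated, so they are not taken as independent and the sum may count reads more than once. A processed pseudogene, Prdx2-rs3, is annotated and has no row in the table. Prdx1 overlaps the row AV051173 on the opposite strand, which reached a mean of 4.42 CPM, and no source used here says if reads were counted by strand.

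Prdx3 is the mitochondrial peroxiredoxin, Prdx5 is found in mitochondria, peroxisomes and the cytosol, and Prdx4 is the form of the endoplasmic reticulum. Prdx3 (NM_007452, chromosome 19, 60939969 to 60950441 in mm9) had 115 CPM in the LGG, 105 in the E. coli, 109 in the PBS library and 102 in the untreated one. Prdx5 (NM_012021, chromosome 19, 6981309 to 6984135 in mm9) had 185 CPM in the LGG, 160 in the E. coli, 168 in the PBS library and 144 in the untreated one. The LGG library was highest for both genes, and Prdx5 had the larger ratio against untreated, 0.36 (0.30 to 0.42), beside 0.18 (0.11 to 0.25) for Prdx3.

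Prdx4 (NM_016764, chromosome X, 151758463 to 151772997 in mm9), the least abundant member, was at 23.5 CPM in the LGG, 21.6 in the E. coli, 20.1 in the PBS library and 19.3 in the untreated one. Its LGG ratios were 0.23 (0.04 to 0.42) against PBS and 0.28 (0.12 to 0.45) against untreated, with the widest intervals of the set. Cells that secrete much protein are rich in endoplasmic reticulum, and marker lists of such cells differed as well. Goblet cell markers summed to 28349 CPM in the LGG, 26834 in the E. coli, 27475 in the PBS library and 24912 in the untreated one. As for Prdx4, the LGG library was highest and the untreated one lowest. Of the 7 goblet cell genes, 6 were positive in LGG against untreated and 5 in LGG against PBS. Plasma cell markers summed to 494 CPM in the LGG, 454 in the E. coli, 470 in the PBS library and 433 in the untreated one, a sum carried by Sdc1 and Xbp1, which other secretory and epithelial cells also express. Of the 6 plasma cell genes with a mean CPM of at least 1, 4 were lower in LGG than in PBS, with a median of -0.37. Igj, which encodes the joining chain of secreted antibodies, was at 32.7 CPM in LGG, 45.2 in E. coli, 50.3 in PBS and 26.9 in untreated. Pancreatic acinar markers summed to 46.8 CPM in LGG, 84.2 in E. coli, 22.9 in PBS and 3.47 in untreated. None of the 7 goblet cell, 7 plasma cell and 10 acinar genes was at 0, and their part in the Prdx4 values was not tested.

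Among the glutathione peroxidases, Gpx1 (NM_008160, chromosome 9, 108241411 to 108242673 in mm9), the widespread intracellular form, was at 195 CPM in both the LGG and the E. coli library, 181 in the PBS library and 173 in the untreated one. Both bacterial libraries gave 0.11 (0.04 to 0.17) against PBS. LGG against E. coli had an interval of -0.05 to 0.05 around 0.

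Gpx4 (NM_008162, chromosome 10, 79516233 to 79519184 in mm9) had 144 CPM in the LGG, 119 in the E. coli, 127 in the PBS library and 122 in the untreated one. The LGG library was the highest of the 4 for this gene. LGG gave 0.18 (0.11 to 0.26) against PBS, 0.23 (0.17 to 0.30) against untreated and 0.27 (0.21 to 0.34) against E. coli, a size that 14.7% of genes reached in the last comparison. A transcribed pseudogene, Gpx4-ps2, is annotated and has no row in the table, so reads shared with it cannot be told apart.

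Gpx3 (NM_008161, chromosome 11, 54716356 to 54723884 in mm9), the form secreted into plasma, was the only member with its highest CPM in the untreated library. It was at 101 CPM in the LGG, 99.97 in the E. coli, 91.3 in the PBS library and 105 in the untreated one. Its intervals against untreated included 0 for LGG (-0.14 to 0.01) and for E. coli (-0.14 to 0.0038). PBS against untreated gave -0.20 (-0.29 to -0.11), and LGG gave 0.14 (0.05 to 0.23) against PBS. Adipocyte markers summed to 159 CPM in the LGG, 76.6 in the E. coli, 117 in the PBS library and 157 in the untreated one with none of the 7 at 0, and their part in the Gpx3 values was not tested.

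**Figure D4:**
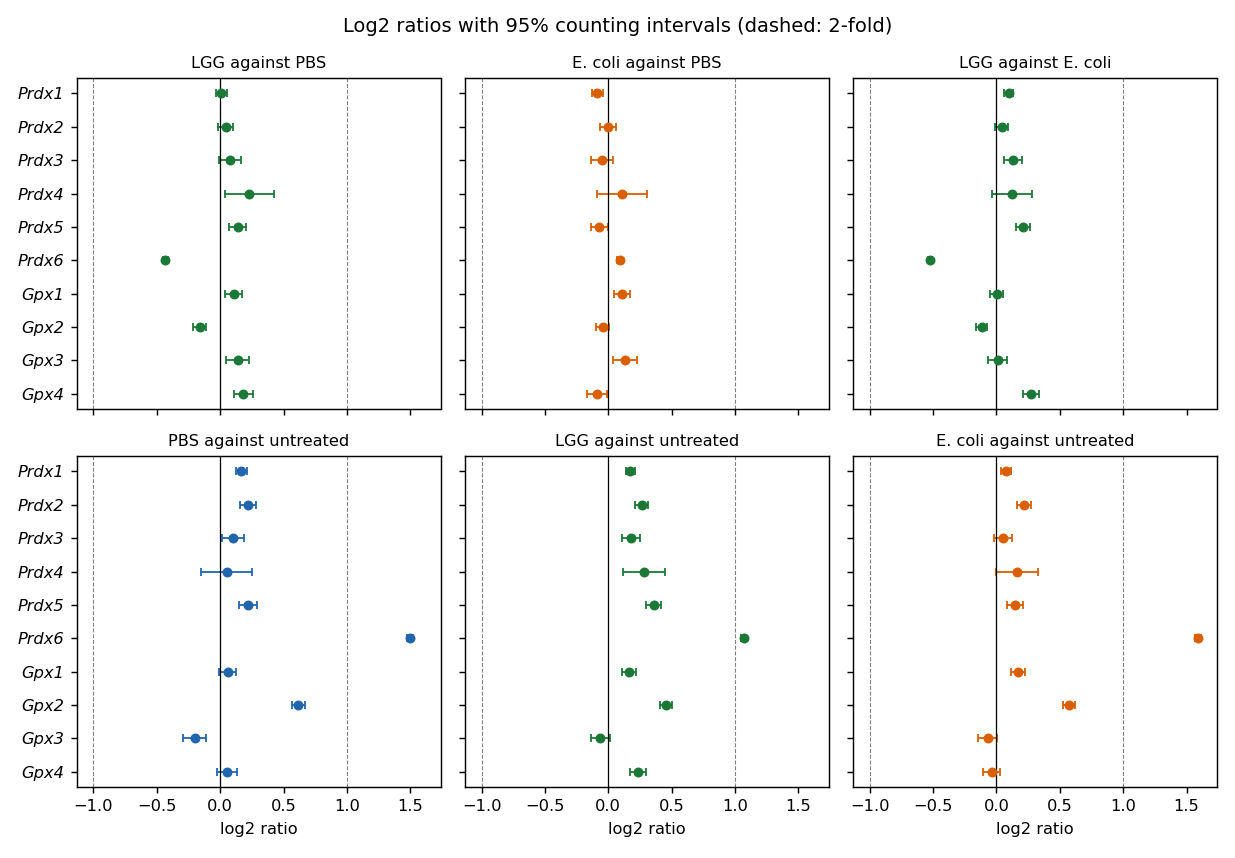
Log2 ratios of the 10 genes in 6 comparisons, with points for the ratios, bars for 95% counting intervals and dashed lines at 2-fold. Prdx6 alone lies beyond 2-fold, in the 3 comparisons with the untreated library, and Prdx6 and Gpx2 alone lie below 0 in LGG against PBS and LGG against E. coli.

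LGG against PBS sets the probiotic beside its vehicle. None of the 10 genes was past the size rule, where 0.277% of all tested genes were. Ratios were positive for 8 members and negative for Prdx6 and Gpx2, beside 49.3% positive over all genes. Prdx1, at 0.01, became negative when libraries were scaled by totals or upper quartiles, which left 7 positive. The median over the members was 0.09, and over all tested genes it was -0.0026.

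E. coli against PBS sets the other bacterium beside the same PBS library, so this comparison and the last share it. Again 0 of 10 members were past the rule, where 0.415% of genes were. Ratios were positive for 4 members, namely Prdx4, Prdx6, Gpx1 and Gpx3, beside 50.7% of genes, and Prdx2 changed sign with DESeq2 factors or library totals. All lay between -0.09 (Gpx4) and 0.13 (Gpx3), with a median of -0.02 beside 0.0022 over all genes. Prdx2 had an interval of -0.06 to 0.06.

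LGG against E. coli compares the bacteria without the PBS library. No member was past the rule, where 0.36% of genes were. Positive ratios were found for 8 members, beside 49.9% of genes, with Prdx6 and Gpx2 again negative. Gpx1 (0.00083) was negative with upper-quartile factors, and both Gpx1 and Gpx3 (0.0081) with library totals, so that 7 and 6 members were positive there. The median was 0.07, beside -0.00022 over all genes, and after Gpx4 the highest ratio was that of Prdx5, at 0.21 (0.15 to 0.27).

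PBS against untreated compares a pair of libraries without bacteria, and it is the contrast known when the set was proposed. Past the 2-fold rule, 1 member, Prdx6, was higher and none was lower, beside 1.45% of tested genes in either direction and 0.664% higher. Over all genes 96 were higher and 113 lower, and with library totals 73 were higher and 156 lower. At 1.5-fold, 2 members, Prdx6 and Gpx2, were higher, beside 2.36% of genes. Ratios were positive for 9 members and negative for Gpx3, beside 50.3% positive over all genes, with a median of 0.13 beside 0.0015. With library totals the median of all genes moved by -0.09, and Prdx4, Gpx1 and Gpx4 became negative too. Nothing about the set is read from these counts, since the choice of genes rested on them.

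The comparisons of both bacteria with the untreated library share it with the last one. In LGG against untreated 1 of 10 members, Prdx6, was past the rule and higher, beside 1.04% of genes in either direction and 0.457% higher (66 genes, and 85 lower; with library totals 54 higher and 133 lower). Ratios were positive for 9 members, Gpx3 being the exception, beside 49.7% of genes. The median was 0.25 beside -0.0015 over all genes. In E. coli against untreated Prdx6 was again the 1 member past the rule, beside 2.35% of genes in either direction and 0.824% higher (119 genes, and 221 lower; with library totals 92 higher and 282 lower). There 8 members were positive and Gpx3 and Gpx4 negative, beside 51% of genes positive, with a median of 0.15 beside 0.0046, and Prdx1 and Prdx3 became negative with library totals.

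Partner genes of these enzymes were summarised by lists of other family members, detoxifying enzymes, electron donors and the selenocysteine machinery. No gene of the 6 lists was past the 2-fold rule in any of the 6 comparisons. Over all tested genes the share past it ran from 0.277% (LGG against PBS) to 2.35% (E. coli against untreated). Counts of positive ratios in the lists stand beside 49.3% of all tested genes in LGG against PBS. That share was 50.7% in E. coli against PBS and 50.3% in PBS against untreated. In the thioredoxin list, which holds the reductants of the peroxiredoxins and their repair enzyme, 7 of 10 genes had positive ratios in LGG against PBS and the median was 0.11. Txn1, which encodes cytosolic thioredoxin, was at 1063 CPM in the LGG, 1023 in the E. coli, 977 in the PBS library and 798 in the untreated one. The untreated library was lowest, as it was for the peroxiredoxins, Gpx1 and Gpx2 with TMM scaling. Unlike Prdx6 and Gpx2, Txn1 was highest in the LGG library. Its ratio in LGG against PBS was 0.12 (0.09 to 0.15). Txnip, the thioredoxin inhibitor, was at 893 CPM in LGG, 798 in E. coli, 832 in PBS and 837 in untreated. For this list the median was -0.01 in E. coli against PBS and 0.02 in PBS against untreated, with 5 of 10 genes positive in each.

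In the list of glutathione synthesis and NADPH supply, 6 of 11 genes were positive in LGG against PBS, with a median of 0.02, and 3 of 11 in E. coli against PBS, with a median of -0.03. PBS against untreated gave 7 of 11 and a median of 0.11. The most abundant members were Pgd, an NADPH-forming enzyme of the pentose phosphate pathway, and Idh1, which also forms NADPH. Pgd was at 319 CPM in the LGG, 308 in the E. coli, 314 in the PBS library and 267 in the untreated one. Idh1 was at 186 CPM in LGG, 183 in E. coli, 180.2 in PBS and 167 in untreated. Me1, the cytosolic malic enzyme and a further source of NADPH, was singled out after its values were seen. It was at 53.3 CPM in the LGG, 29.8 in the E. coli, 56.0 in the PBS library and 58.7 in the untreated one, and E. coli against PBS gave -0.91 (-1.05 to -0.77), short of 2-fold. Me1 is strongly expressed in fat, and the adipocyte markers given above were lowest in the E. coli library as well; their part in its value was not tested.

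**Figure D5:**
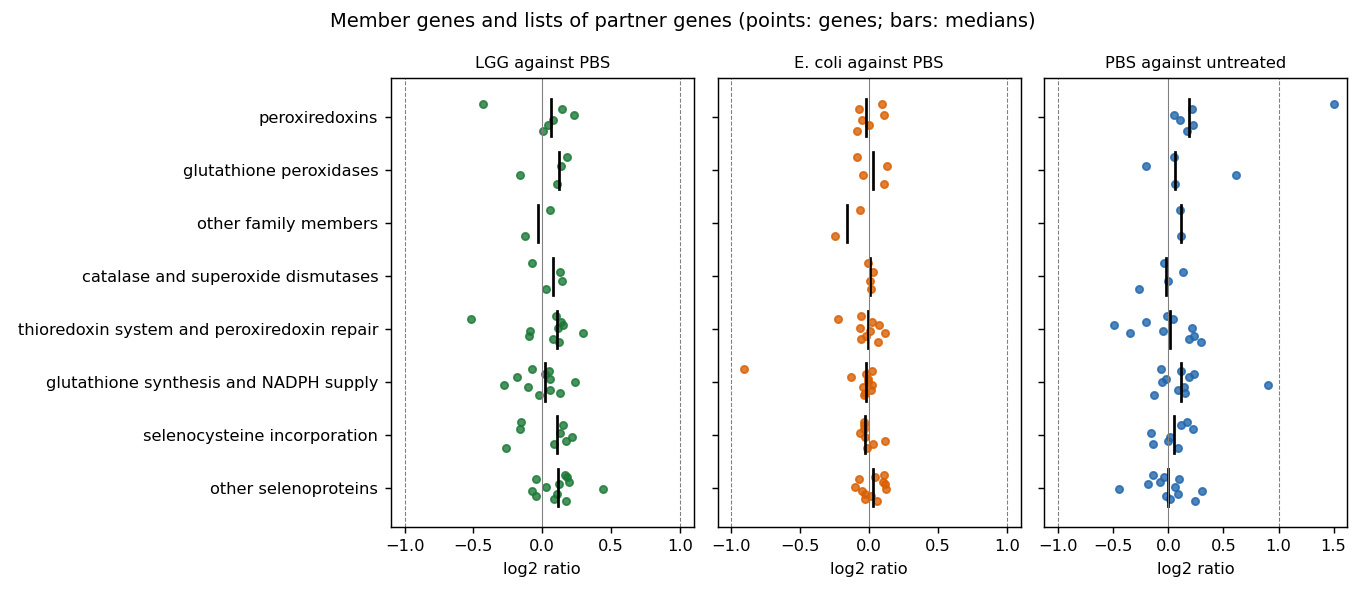
Log2 ratios of single genes (points) and list medians (bars) for the 2 families and 6 lists of partner genes, in panels for both bacteria against PBS and for PBS against untreated, with dashed lines at 2-fold. Medians lie between -0.16 (other family members, E. coli against PBS) and 0.19 (peroxiredoxins, PBS against untreated). The single point past 2-fold is Prdx6 in PBS against untreated, at 2.83-fold.

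Catalase and the superoxide dismutases, which act on hydrogen peroxide and on superoxide, stayed between -0.08 and 0.15 in LGG against PBS and between -0.01 and 0.03 in E. coli against PBS. Sod1, the cytosolic dismutase, was at 265 CPM in the LGG, 240.1 in the E. coli, 239 in the PBS library and 239 in the untreated one. Sod2, the mitochondrial form, was at 124 CPM in LGG, 116 in E. coli, 114 in PBS and 104 in untreated. Catalase (Cat), named after its values were seen, was at 90.3 CPM in LGG, 89.4 in E. coli, 88.5 in PBS and 107 in untreated, with the untreated library highest, the reverse of Prdx6.

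Insertion of selenocysteine needs its own enzymes and factors. The list used here held 8 measured genes linked to it, not all of which are needed for insertion. In LGG against PBS 5 of 8 were positive with a median of 0.10, and in PBS against untreated 5 of 8 with a median of 0.05. In E. coli against PBS only 2 of 8 were positive, with a median of -0.03. Sephs2, which makes the selenium donor, was at 89.6 CPM in the LGG, 86.4 in the E. coli, 79.7 in the PBS library and 80.1 in the untreated one, and Sephs1 was at 39.9 CPM in LGG, 38.4 in E. coli, 37.6 in PBS and 41.4 in untreated. Among the other selenoproteins 9 of the 12 genes with a mean CPM of at least 1 were positive in LGG against PBS, with a median of 0.12. In E. coli against PBS 7 of 12 were positive with a median of 0.03, and in PBS against untreated 6 of 12 with a median of -0.0025. The selenium carrier Sepp1 was at 1161 CPM in the LGG, 1072 in the E. coli, 1029 in the PBS library and 869 in the untreated one, and the endoplasmic reticulum protein Sep15 at 203 CPM in LGG, 184 in E. coli, 188 in PBS and 177 in untreated.

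Of the remaining family members, 2 reached a mean of 1 CPM, Gpx8 and Gpx7, both relatives located in the endoplasmic reticulum. Gpx8 was at 14.8 CPM in the LGG, 13.6 in the E. coli, 14.2 in the PBS library and 13.2 in the untreated one, and Gpx7 at 5.26 CPM in LGG, 4.82 in E. coli, 5.73 in PBS and 5.29 in untreated. Their intervals included 0 in each of the 6 comparisons. Gpx5 and Gpx6 had 0 counts in every library, which allows up to 0.103 CPM in the LGG, 0.103 in the E. coli, 0.187 in the PBS library and 0.105 in the untreated one, taking 3 counts as the limit.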

How the data were processed

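The authors deposited 1 table of expected counts per RefSeq gene for 4 colon libraries, with values in steps of 0.5; no source used here says where these steps come from. TopHat2, HOMER and the mm9 build are named in the submitters' processing notes, without versions or roles. Gene lengths and coordinates are those of the deposited table. Counts were rounded to whole numbers and scaled with TMM factors (edgeR 4.0.16, R 4.3.3). Log2 ratios (0.5 counts added) and exact conditional binomial 95% intervals used scipy 1.17.1, numpy 2.4.6 and pandas 2.3.3 under Python 3.11.15, and figures matplotlib 3.10.9. The computation covered all 24016 rows and was tested on simulated data. PCR duplicates were not marked by molecular identifiers, so reads are not independent molecules. Members and lists were chosen with earlier results of these data known. Named genes were all members, genes of the partner lists past 2-fold or else the 2 most abundant of each list, and the 5 genes nearest in pattern to a member with a 2-fold range. Cat, Me1, Slc7a11, genes named from marker lists, and genomic neighbours, relatives and pseudogenes of members fall outside that rule. The alternatives were other scalings (DESeq2 1.42.0 size factors, library totals, upper-quartile factors), other filters (none, or 5 CPM on average), 5 counts added, a threshold of 1.5-fold, and counts without rounding.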

Additional observations from a re-analysis of the deposited data

Results flagged for a closer look

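For 3 members the LGG and E. coli libraries lay on opposite sides of the shared PBS library with both counting intervals clear of 0 under TMM scaling. The share of all genes that do so was not computed, so nothing about the set is read from this count. Single intervals excluded 0 for 27.4% of tested genes in LGG against PBS and 19% in E. coli against PBS. The difference between the bacteria was not tested, since each has 1 library. Prdx6 was at -0.43 in LGG and 0.09 in E. coli against PBS, which is -0.52 in LGG against E. coli. Prdx5 was at 0.14 in LGG and -0.07 (-0.14 to -0.0011) in E. coli against PBS, which is 0.21 in LGG against E. coli. Its E. coli interval reached 0.0026 with DESeq2 factors and 0.0047 with library totals, so that it included 0 there. Gpx4 was at 0.18 in LGG and -0.09 (-0.17 to -0.01) in E. coli against PBS, which is 0.27 in LGG against E. coli. For Prdx6 and Gpx4 both intervals also excluded 0 with DESeq2 factors, library totals and upper-quartile factors.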

How the results depend on the processing

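The count of members past 2-fold stayed the same in all 6 comparisons under DESeq2 or upper-quartile factors, no filter, a filter at 5 CPM on average, 5 counts added to each value, and counts without rounding. With library totals it was 0 in LGG against untreated, where Prdx6 was at 0.97, in place of 1. At 1.5-fold it was 2 in PBS against untreated, where Gpx2 joined Prdx6, in place of 1. Counts over all genes moved more with the filter and threshold. Without a filter they were 106 in place of 40 in LGG against PBS, 135 in place of 60 in E. coli against PBS, 162 in place of 52 in LGG against E. coli, and 333, 598 and 358 in place of 151, 340 and 209 in LGG, E. coli and PBS against untreated. With the 5 CPM filter the same counts were 6, 10, 13, 51, 152 and 85, and at 1.5-fold they were 227, 212, 317, 761, 1199 and 850. Of 300 member ratios recomputed under other scalings, priors or unrounded counts, 274 stayed inside their main counting interval and 26 moved outside it. A change of sign was counted only for ratios past the size rule, those of Prdx6 against untreated, and 0 changed. Ratios that large were out of reach of the shifts given next, so this 0 carries no information. Some smaller ratios did change sign, as given above. Library totals shifted the median of all genes by -0.09 in PBS, -0.08 in E. coli and -0.10 in LGG, each against untreated, so ratios of this size are not separable from the choice of scaling. No paired analysis was possible because each group has 1 library. Depth was lowest in the PBS library, and it limits Prdx4 most.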
